A study of Rattus norvegicus with 12 samples.

Results

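The miRNAs described here are miR-210-3p and the 3 arms miR-34a-5p, miR-34b-5p and miR-34c-5p of the miR-34 family. They were measured in the left ventricle of sham-operated rats and of rats with chronic heart failure. They were taken by name, and all 4 were found among the 758 rat miRNAs of the array. miR-210-3p and miR-34a-5p were detected above background on all 12 arrays, whereas miR-34b-5p and miR-34c-5p were detected on none. Neither detected member differed between the Sham, MI and YQFM groups beyond the spread between rats.

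MiRNA profiles were obtained from male Wistar rats, 4 per group, with 1 single-dye Agilent array per rat. The Sham group had the operation without coronary ligation and received saline. The MI group had its left anterior descending coronary artery ligated and received saline, and its labels name it the chronic heart failure group. The YQFM group had the same ligation and received YQFM, an injection prepared from botanical drugs, intraperitoneally at 5 mg/kg/d for 28 days from 4 weeks after surgery. The age of the rats was not given in the sources used here. The RNA came from heart tissue taken near the infarction area, so a smaller number of cells of one type and less of a miRNA per cell cannot be told apart. The question of the study was which cardiac miRNAs changed with heart failure and with YQFM treatment.

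miR-210 is the best known hypoxia-responsive miRNA. Its gene is a direct target of the hypoxia-inducible factor HIF-1, and the miRNA is known for repressing mitochondrial proteins such as the iron-sulfur cluster scaffold ISCU when oxygen is scarce. The miR-34 genes are direct transcriptional targets of the tumor suppressor p53, and their miRNAs repress cell cycle and survival genes. In the heart, miR-34a is known for its rise with age and for promoting cardiomyocyte death, while miR-34b and miR-34c are best known from ciliated epithelium, testis and brain.

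The members are shown 5′ to 3′ with the seed, bases 2 to 8 that pair with target mRNAs, in capitals. They were read from RefSeq for the GRCr8 assembly, together with the other miRNAs of the array that carry the seed of the miR-34 family:
rno-miR-210-3p: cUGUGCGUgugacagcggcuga
rno-miR-34a-5p: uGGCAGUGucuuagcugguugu
rno-miR-34b-5p: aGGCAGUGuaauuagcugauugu
rno-miR-34c-5p: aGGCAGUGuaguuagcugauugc
rno-miR-449a-5p: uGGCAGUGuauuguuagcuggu
rno-miR-449c-5p: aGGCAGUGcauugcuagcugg
The seed of the miR-34 family occurred in 5 of the 685 miRNAs of the array that had a sequence in this reference, namely the 3 members and miR-449a-5p and miR-449c-5p. The seed of miR-210-3p occurred in miR-210-3p alone among the 685. miR-34b-5p and miR-34c-5p shared 21 of 23 bases and differed by A11G and U23C, with miR-34b-5p as the first of the pair and positions counted from 1 at the 5′ end. miR-34a-5p shared 19 bases with miR-34b-5p and 18 with miR-34c-5p in an alignment of 23 columns.

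The genes lie at 3 places of the rat genome. In GRCr8, Mir210 occupies chr1:205755923-205756032 on the minus strand, within the lncRNA LOC102553043 and opposite to Mir3574 on the plus strand. Its nearest protein-coding genes are Rassf7, 2573 bases away, and Phrf1, 7232 bases away. Mir34a occupies chr5:165815952-165816053 on the plus strand within the lncRNA LOC103692514. Mir34b at chr8:60306609-60306692 and Mir34c at chr8:60306091-60306167 are neighbors on the minus strand, 442 bases apart. Mir34c lies within the span of the protein-coding gene Hoatz and Mir34b overlaps its end, with Btg4 398 bases beyond Mir34b. The table used did not separate exons from introns.

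Each member was read by 2 DNA probes that were complementary to the 3′ part of the miRNA, printed 8 times each per array. The probes decide which family member a signal belongs to, and their sequences are given 5′ to 3′ as in the array files, the shorter first:
miR-210-3p, shorter: tcagccgctgtcaca
miR-210-3p, longer: tcagccgctgtcacac
miR-34a-5p, shorter: acaaccagctaagacactg
miR-34a-5p, longer: acaaccagctaagacactgc
miR-34b-5p, shorter: acaatcagctaattacactgc
miR-34b-5p, longer: acaatcagctaattacactgcc
miR-34c-5p, shorter: gcaatcagctaactacact
miR-34c-5p, longer: gcaatcagctaactacactg
The miR-34a-5p probes had 8 to 10 mismatches with miR-34b-5p and miR-34c-5p at the best ungapped place. The probes of miR-34b-5p and miR-34c-5p had only 2 mismatches with each other's miRNA.

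The array intensities were scaled between arrays, and every level below is this scaled signal, in intensity units. An array was taken to detect a miRNA if any of its probes had over 50% of its spots well above background. Between 211 and 268 miRNAs were detected per array, and 201 on all 12 arrays. The number of arrays limits the precision, and nothing in the labels says whether the 4 rats of a group were operated on together. The arrays lay on 3 slides, the first with MI replicates 1 to 3, the second with MI replicate 4 and YQFM replicate 1, and the third with all Sham arrays and YQFM replicates 2 to 4. MI and Sham arrays shared none of the slides. A fit with the slide as a fixed block links them only through the second slide, with 1 MI array against 1 YQFM array, so slide and group can hardly be separated in that comparison. MI replicate 4 and Sham replicate 4 carry source names of other groups, and were grouped by their titles and group entries. The cardiomyocyte list had 4 of 6 miRNAs detected on all arrays, namely miR-1-3p, miR-133a-3p, miR-133b-3p and miR-499-5p. Its other miRNAs were hardly seen, miR-208a-3p on 1 array and miR-208b-3p on 0. The liver, neuron and endocrine markers miR-122-5p, miR-124-3p and miR-375-3p were detected on none.

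miR-210-3p was measured at a slightly higher mean in Sham hearts than in MI and YQFM hearts, within the spread between rats. In Sham rats, replicates 1 to 4 gave scaled signals of 56.9, 38.9, 41.8 and 47.8. In MI rats the signals were 49.0, 35.7, 39.9 and 34.9. In YQFM rats they were 47.9, 34.6, 39.0 and 33.5. Replicate 1 was the highest array of each group, and the ranges of the 3 groups overlapped. Groups without any overlap were seen for 12.2%, 6.46% and 6.08% of the 263 tested miRNAs in MI against Sham, YQFM against MI and YQFM against Sham, and for neither of the detected members. The mean ± SD over 4 rats was 46.3 ± 7.97 for Sham, 39.9 ± 6.46 for MI and 38.75 ± 6.55 for YQFM. Over all 12 rats the highest signal was 1.70 times the lowest.

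miR-34a-5p varied more between rats than miR-210-3p. The Sham signals were 110.5, 61.0, 73.8 and 88.1 for replicates 1 to 4. The MI signals were 135.2, 109.1, 81.6 and 84.5. The YQFM signals were 127.9, 77.6, 94.6 and 71.5. Replicate 1 was again the highest of each group, and each group's range overlapped with the others. The mean ± SD over 4 rats was 83.35 ± 21.25 for Sham, 102.6 ± 25.01 for MI and 92.9 ± 25.3 for YQFM, and the highest rat had 2.22 times the signal of the lowest.

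**Figure D1:**
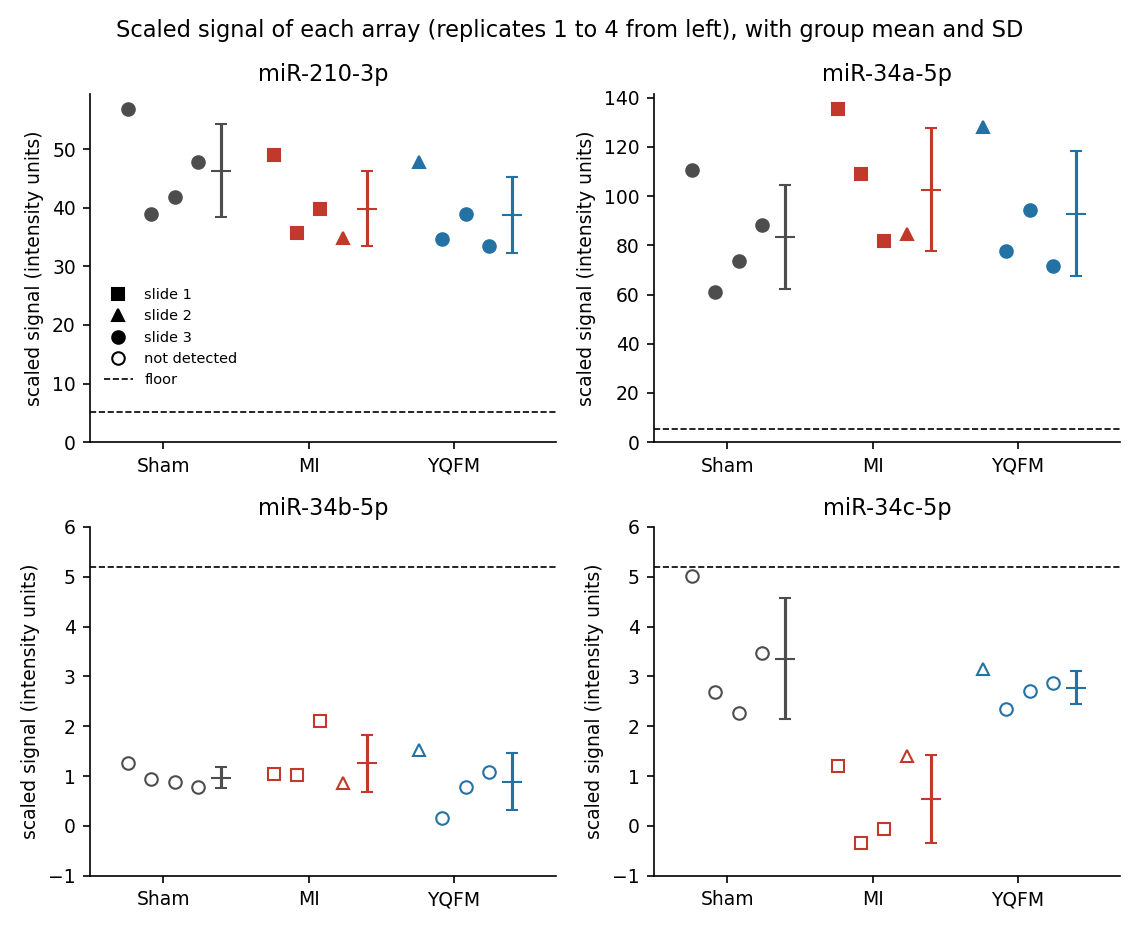
Scaled signal in intensity units of miR-210-3p, miR-34a-5p, miR-34b-5p and miR-34c-5p on each of the 12 arrays by group, with the slide as symbol, open symbols where the miRNA was not detected, bars for the group mean and SD, and the floor of 5.20 as a dashed line. The first pair of miRNAs lies far above the floor in every rat with overlapping groups, and the other pair lies below it on all arrays.

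Neither detected member passed the test in any comparison. MiRNAs were tested with limma across the 263 that were detected on at least 2 arrays of a group, and p-values were adjusted by the Benjamini-Hochberg method over all of them. In MI against Sham, 0 of the 2 tested members were called at an adjusted p below 0.05, beside 7.22% of all tested miRNAs (19 of 263). In YQFM against MI, 0 members were called, beside 0.0% of the 263. In YQFM against Sham, 0 members were called, again beside 0.0%. At an unadjusted limma p below 0.05 the members called were likewise 0 in each comparison, while 77, 50 and 15 of all tested miRNAs passed in the same order. This unadjusted count of 0 did not hold under every alternative setting. miR-210-3p passed the unadjusted limit under 2 of 30 alternatives in MI against Sham and 4 of 31 in YQFM against Sham. The 4 were leaving out YQFM replicate 1, the slide as a fixed block, the slide of both groups alone, and a replicate block. miR-34a-5p passed it under 1 of 30 in MI against Sham, the brightest probe (log2 ratio 0.58). Neither passed it in YQFM against MI. At an adjusted p below 0.05, the count over all tested miRNAs depended on single arrays, the members' count of 0 did not. In MI against Sham it was 62 without MI replicate 4, 29 without YQFM replicate 1, 12 without Sham replicate 2, 11 without MI replicate 1, 7 without Sham replicate 1 or 4, and 4 without MI replicate 2 or 3. In YQFM against MI it was 28 without MI replicate 4 and 23 without YQFM replicate 1. Without both arrays of conflicting labels, 58 and 28 of all tested miRNAs were called in MI against Sham and YQFM against MI, with 0 members. The log2 ratios of these comparisons were then -0.14 and -0.10 for miR-210-3p and 0.42 and -0.23 for miR-34a-5p.

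miR-210-3p was 0.86 times as high in MI as in Sham (log2 ratio -0.22, SE 0.16, limma adjusted p = 0.394). The 95% interval of this fold ran from 0.67 to 1.1. In YQFM against MI the log2 ratio was -0.04 (95% interval -0.40 to 0.31, limma adjusted p = 0.951), and it turned to 0.46 with the slide as a fixed block, 0.15 as a random block and 0.145 in the authors' processed values. In YQFM against Sham it was -0.26 (95% interval -0.61 to 0.10, limma adjusted p = 0.664). Exact two-sided permutation tests gave p = 0.257, 0.686 and 0.229 for the 3 comparisons, with 0.0286 the smallest that 4 rats against 4 allow. The MI against Sham value was 0.04 with the brightest probe of each miRNA in place of the mean over probes, a setting that also moved the median log2 ratio of all tested miRNAs from -0.05 to 0.14. The MI against Sham value of miR-210-3p was -0.03 with the software's total gene signal and -0.05 with quantile normalization. With the slide as a fixed block it was -0.82 (limma adjusted p = 0.625).

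miR-34a-5p was 1.23 times as high in MI as in Sham (log2 ratio 0.30, SE 0.24, limma adjusted p = 0.426). The 95% interval of the fold ran from 0.86 to 1.77. The YQFM against MI log2 ratio was -0.15 (95% interval -0.67 to 0.37, limma adjusted p = 0.841). The YQFM against Sham log2 ratio was 0.15 (95% interval -0.37 to 0.68, limma adjusted p = 0.852). By exact two-sided permutation the 3 comparisons gave p = 0.286, 0.571 and 0.543. The sign turned with the slide as a fixed block, to -0.61 for MI against Sham, 0.60 for YQFM against MI and -0.01 for YQFM against Sham. Without YQFM replicate 1, which alone lay outside the slide of the Sham arrays, the YQFM against Sham value was also -0.01.

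**Figure D2:**
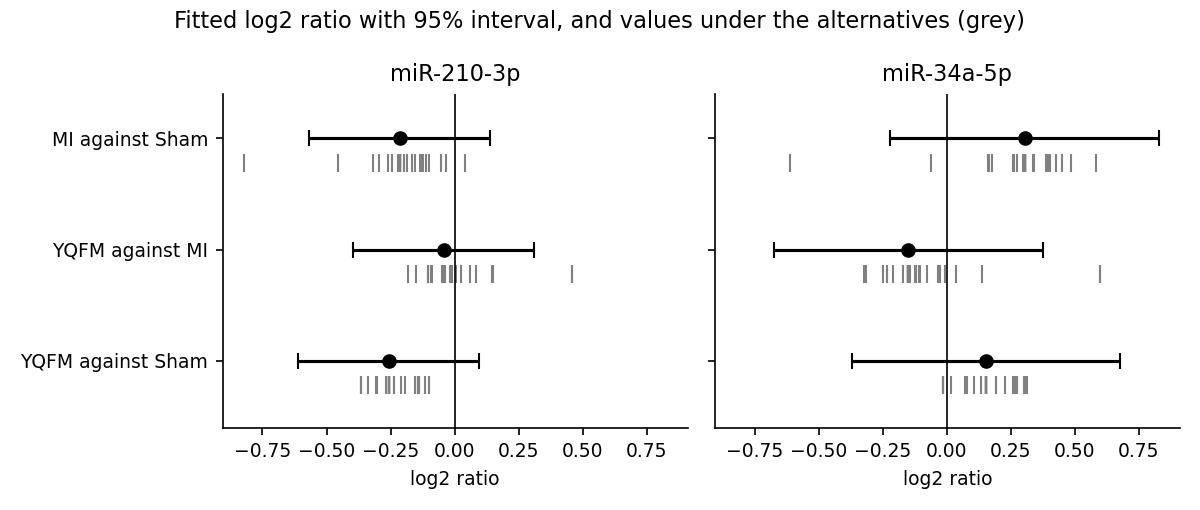
Log2 ratio of miR-210-3p and of miR-34a-5p in the 3 comparisons, as the limma value with its 95% interval in black and as the values under the alternative settings in grey. Every black interval includes 0, and the grey values lie on both sides of 0 in 5 of the 6 rows, the exception being miR-210-3p in YQFM against Sham.

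Both probes of miR-210-3p gave the same picture. In MI against Sham the log2 ratio was -0.23 for the 15-base probe and -0.21 for the 16-base probe, and between YQFM and MI the values were -0.02 and -0.05. All 82 used spots of the shorter probe and all 86 of the longer one were well above background over the 12 arrays, and no spot was saturated. The median spot-to-spot coefficient of variation was 4.69% for the shorter probe and 3.94% for the longer one. It was smaller than that between the rats of a group, which was 16.5% to 17.9% over both probes.

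The values of the miR-34a-5p probes lay further apart. The 20-base probe had a log2 ratio of 0.33 in MI against Sham and -0.19 in YQFM against MI. The 19-base probe, which lacks 1 base at its 3′ end, had 0.13 and 0.08, so that the sign in YQFM against MI depended on the probe. In YQFM against Sham the longer probe gave 0.14 and the shorter 0.20. All 89 and 90 used spots of the longer and the shorter probe were well above background. The between-rat coefficient of variation was 25.2% to 34.6% within groups, against a median of 4.64% and 6.16% between spots.

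**Figure D3:**
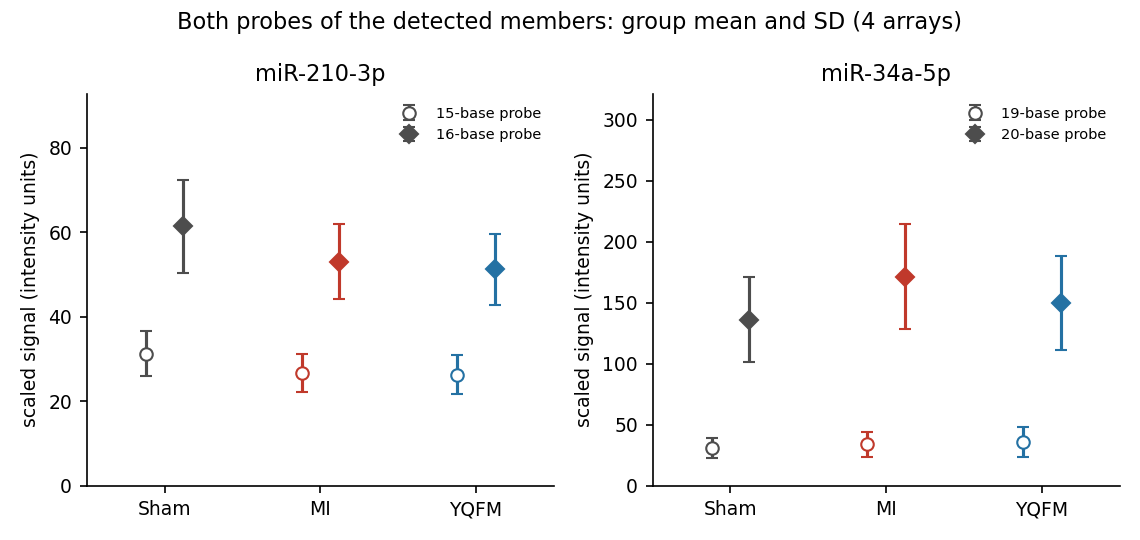
Scaled signal in intensity units of the shorter (open circles) and the longer probe (filled diamonds) of miR-210-3p and miR-34a-5p, as mean and SD of 4 arrays per group. The bars of the 3 groups overlap for every probe, and the levels of the probes of one miRNA differ in all groups.

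miR-34b-5p gave no measurable level. Its scaled signals were 1.26, 0.94, 0.87 and 0.79 in Sham, 1.04, 1.02, 2.11 and 0.86 in MI, and 1.53, 0.16, 0.79 and 1.09 in YQFM. None of its 175 used spots was well above background. The signal lay below the mean of the negative control spots on every array, with differences from -2.29 to -0.11. It stands at 0.1, the authors' value for miRNAs without detection, on all 12 arrays of their table.

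miR-34c-5p was detected on no array either. The signals were 5.02, 2.68, 2.26 and 3.46 in Sham and 3.15, 2.35, 2.72 and 2.87 in YQFM. In MI they were 1.20, -0.35, -0.06 and 1.41, below all Sham and YQFM arrays. None of its 166 used spots was well above background, and the authors' table also lists it at 0.1 on all arrays. Of the 471 miRNAs detected on no array, 3 (0.637%) had every MI array below every Sham and YQFM array. By probe, the MI arrays lay below all Sham arrays for the shorter one and overlapped with them for the longer one. Against the mean of the negative control spots, miR-34c-5p differed by -2.28 to -0.06 in MI and by 0.25 to 2.99 in Sham. For YQFM these values were -0.10 to 1.47. The control spots of an array had an SD of 1.35 to 2.39 between single spots. The order was noticed after the values were seen and was not tested, and no fold is given between values without detection.

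The opposite arms of the same hairpins were compared with the members by detection. The hairpins are shown in lower case, with the arm that was detected on at least 1 array in capitals, for the 3 genes where there was one:
Mir210: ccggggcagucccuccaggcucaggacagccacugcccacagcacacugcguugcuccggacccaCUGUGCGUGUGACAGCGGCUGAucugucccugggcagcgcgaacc
Mir34a: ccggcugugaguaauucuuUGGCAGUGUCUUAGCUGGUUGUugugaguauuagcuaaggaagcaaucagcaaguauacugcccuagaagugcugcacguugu
Mir34c: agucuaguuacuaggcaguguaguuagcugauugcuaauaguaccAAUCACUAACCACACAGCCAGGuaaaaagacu
For Mir210 the detected arm was the 3′ one, and miR-210-5p was detected on 0 of 12 arrays. For Mir34a it was the 5′ arm, and miR-34a-3p was detected on 0 arrays. For Mir34b neither arm was detected.

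Mir34c had signal on the arm opposite to the member. miR-34c-3p was detected on 4 of the 12 arrays, namely Sham replicates 1 and 3, MI replicate 4 and YQFM replicate 1. By the software's detection call, and with a single spot above background as the rule, it was 10 of 12 arrays. Its scaled signals were 9.22, 2.72, 5.56 and 4.64 in Sham, 7.82, 5.43, 4.99 and 6.01 in MI, and 6.53, 3.90, 4.87 and 2.89 in YQFM. The groups overlapped, and the mean ± SD over 4 rats was 5.54 ± 2.73, 6.06 ± 1.24 and 4.55 ± 1.55 in the same order. As 6 of the 12 signals lay under the floor of 5.20, no log2 ratio is given. The signal came from the 12-base and 13-base probes, with 18 of 47 and 20 of 47 spots well above background. The 10-base and 11-base probes had 0 spots above background of 48 and 47 used. Whether such short probes bound other RNAs was not tested.

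The other miRNAs with the miR-34 seed were not found in this tissue. miR-449a-5p and miR-449c-5p, which like miR-34b and miR-34c mark ciliated epithelium, were detected on 0 of 12 arrays. Of the 5 miRNAs of the array with this seed, miR-34a-5p was thus the one above background in the left ventricle.

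miR-210-3p and miR-34a-5p varied together from rat to rat. Over the 12 arrays their log2 signals had a Pearson r of 0.589 (permutation p = 0.0473) and a Spearman rho of 0.657 (permutation p = 0.0233), the 1 pair tested by permutation. Without Sham replicate 1 and MI replicate 1, the arrays farthest from the median of miR-210-3p, r was 0.398 (permutation p = 0.262), so the relation no longer passed without them, over a narrower range of miR-210-3p. Within the slide of the Sham and YQFM arrays r was 0.696 over 7 arrays. For deviations from the group means it was 0.900, and without scaling between arrays 0.742. Both miRNAs of a point share the array and its scaling. Against all 200 other miRNAs detected on all arrays, the median r was 0.382 for miR-210-3p and 0.286 for miR-34a-5p. The permutation p is against no relation, not against these medians. The medians are for the scaled signal over all arrays, and none is given for the deviations or the unscaled signal.

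On every MI and YQFM array miR-34a-5p stood higher relative to miR-210-3p than on any Sham array, except under the settings named at the end. The log2 difference of miR-34a-5p minus miR-210-3p, in which the scaling of the array cancels, was 0.96, 0.65, 0.82 and 0.88 in Sham. It was 1.47, 1.61, 1.03 and 1.28 in MI and 1.42, 1.16, 1.28 and 1.096 in YQFM. The means were 0.83 ± 0.13, 1.35 ± 0.25 and 1.24 ± 0.14 (SD, n = 4 each). Within the slide of Sham and YQFM the YQFM arrays lay 0.35 higher on average. Their separation from the Sham arrays there follows from that of the full groups and adds nothing to it. This difference was chosen after the values were seen and has no test. Among the 20100 pairs of miRNAs detected on all arrays, 11.6% had no overlap between MI and Sham, 4.06% none between YQFM and Sham, and 1.2% none in both in the same direction. MI and Sham arrays shared no slide. With the shorter miR-34a-5p probe the MI and Sham arrays overlapped, with quantile normalization the YQFM and Sham arrays did, and with normexp background correction both separations were lost. Quantile normalization and normexp also ended the separation within the shared slide.

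**Figure D4:**
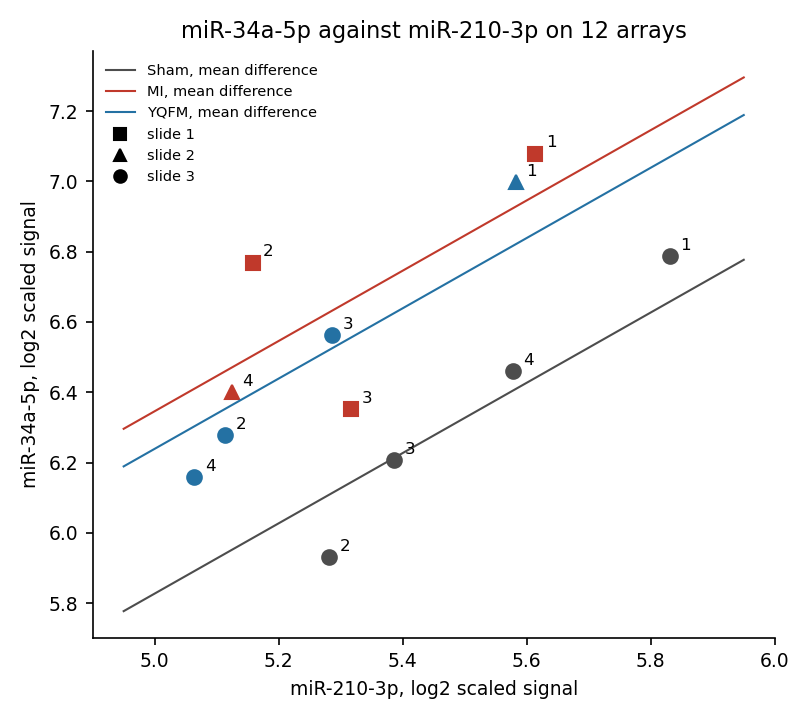
Log2 scaled signal of miR-34a-5p against that of miR-210-3p on the 12 arrays, with the replicate number beside each point, the slide as symbol and lines for the mean difference of each group. The points run upward over Sham and YQFM but not over all MI arrays, where replicate 3 has a lower miR-34a-5p signal than replicates 2 and 4, and all MI and YQFM points lie above the Sham line at their miR-210-3p signal, with mean differences of 1.35 and 1.24 against 0.83.

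The miRNAs most like each member across arrays were of other families. Among the 200 other miRNAs detected on all arrays, miR-3594-5p (Pearson r = 0.899), miR-92a-3p (0.896) and miR-20a-5p (0.842) were most like miR-210-3p in log2 signal, where the median r was 0.382. miR-92a-3p and miR-20a-5p are members of one polycistronic cluster known for promoting proliferation. Their MI against Sham log2 differences were -0.15, -0.24 and -0.06, of the same sign as that of miR-210-3p. Those most like miR-34a-5p were miR-98-5p (0.962), let-7g-5p (0.952) and let-7i-5p (0.926), all of the let-7 family, where the median r was 0.286. Their MI against Sham log2 differences were 0.16, 0.11 and 0.31, beside 0.30 for miR-34a-5p. These miRNAs were chosen by r over the same arrays with the groups included, so likeness of their group differences to those of the members is partly built in. The points of these correlations share the array and its scaling.

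The hypoxia list, which includes miR-210-3p itself, gave no call. All 17 of the hypoxia list were on the array and tested, 15 were detected on all arrays, and 0 were called in any comparison, beside 7.22%, 0.0% and 0.0% of all tested miRNAs. At an unadjusted limma p below 0.05 there was 1 in MI against Sham, miR-181c-5p (log2 ratio -0.44, limma adjusted p = 0.0839), and 0 in the other comparisons. The median log2 ratio of the list in MI against Sham was 0.03, beside -0.05 over all tested miRNAs. The list sets no direction of response for its miRNAs, so this median does not measure a hypoxia response. miR-21-5p, known from cardiac fibroblasts, had the log2 ratio 0.79 (limma adjusted p = 0.194). miR-199a-5p, known for repressing HIF-1 alpha, had 0.73 (limma adjusted p = 0.309). miR-23b-3p had 0.34 and miR-107-3p 0.23 (limma adjusted p = 0.311 and 0.309). These were the highest ratios of the list. Other members went the other way, among them miR-181a-5p (-0.17), miR-26a-5p (-0.11) and miR-27a-3p (-0.08), with limma adjusted p = 0.496, 0.718 and 0.853.

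The p53 list, which includes miR-34a-5p, miR-34b-5p and miR-34c-5p themselves, gave no called miRNA either. Of its 13 miRNAs, 5 were detected on all arrays, 6 on none and 6 were tested, and 0 were called in any comparison, with 0 at an unadjusted limma p below 0.05. Its median log2 ratio, with miR-34a-5p counted, was 0.21 in MI against Sham, beside -0.05 over all tested miRNAs. In YQFM against MI it was -0.11, beside -0.01. miR-16-5p, which represses BCL2 and cyclins, had 0.32 in MI against Sham and -0.26 in YQFM against MI (limma adjusted p = 0.303 and 0.519). miR-143-3p and miR-145-5p, best known from smooth muscle, had -0.11 and -0.28 in MI against Sham (limma adjusted p = 0.711 and 0.311). The epithelial miRNAs miR-141-3p and miR-200c-3p, together with miR-194-5p and miR-215, were detected on no array.

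Among the marker lists of other cell types, the fibroblast list had the highest median log2 ratio in MI against Sham, 0.67, with 0 of its 4 miRNAs called. Its summed scaled signal was 379.6 to 561 in Sham, 473 to 1104 in MI and 488 to 1543 in YQFM, and its part in the values of miR-34a-5p was not tested. The leukocyte list had a median of -0.02 and 0 of 4 tested miRNAs called, and the summed signal was 331 to 386 in Sham and 322 to 412 in MI. The medians of the cardiomyocyte, erythrocyte, endothelial and smooth muscle lists were -0.11, -0.20, 0.06 and -0.20, with 0 called in each, and 0 of the 4 miRNAs of the ciliated epithelium list were detected.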

How the data were processed

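MiRNA was measured on single-dye Agilent rat arrays of 12 rats. The authors deposited scanner files with the spot intensity, detrended and background-subtracted by Agilent Feature Extraction 10.7.1.1 (submitters' processing notes) without scaling between arrays, and a table of linear intensities per miRNA, equal to 0.1 where not detected. The study names GeneSpring and speaks of normalized data, without giving the method. All columns were matched to samples.

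Control and outlier spots were left out. Intensities were averaged over spots and probes, scaled so that the 75th percentile of the 201 miRNAs that every array detected was equal on all arrays (244), set to at least 5.20 and taken to log2. The floor is the highest of the lowest detected signals of the arrays. The 263 miRNAs detected on at least 2 arrays of a group were tested over all 12 arrays (limma 3.58.1, R 4.3.3, two-sided, Benjamini-Hochberg, threshold 0.05). The procedure was tested on simulated data with independent noise for each miRNA and no slide effect. That check does not cover the slide layout of these arrays. Members were also compared by exact permutation (scipy 1.17.1), and the correlation by 100000 permutations. The number of arrays limits the precision.

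The members, the lists and the naming rule were chosen with earlier results of these data known. The rule named the 4 members, their opposite arms, miRNAs with a member's seed, the hypoxia and p53 lists, and the 3 miRNAs most correlated with each member detected on at least 9 arrays. Marker lists covered cardiomyocytes, fibroblasts, leukocytes, erythrocytes, endothelium, smooth muscle, ciliated epithelium and other tissues. Alternatives were normexp background correction, the software's total gene signal, the authors' values, the brightest probe, other scalings, floors, detection calls and filters, a fit of the compared groups only, the slide or replicate number as a block, within-slide values, a trend, the methods' t-test, and fits without the arrays of conflicting labels or without each array. Sequences and positions came from RefSeq tables on GRCr8, and the array annotation refers to an older build, whose coordinates were not used here.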

Additional observations from a re-analysis of the deposited data

Results flagged for a closer look

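MI replicate 3 stood apart from the other MI arrays for miR-34b-5p, with a scaled signal of 2.11 beside 0.86 to 1.04. The gap to the nearest array was 0.855 of the range of the group, above Dixon's 95% critical value for 4 samples, and the signal was below background on all arrays. It was 1 of 15 groups of 4 tested, and chance flags about 1 in 20.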

How the results depend on the processing

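Under all alternatives that could be fitted, 0 members were called in each comparison, and the smallest adjusted limma p of a member was 0.144. Of 184 alternative log2 ratios of miR-210-3p and miR-34a-5p, 166 kept the direction of the value reported. Many of these could not move the ratio, such as the trend, the t-test, the replicate block, the filters or leaving out an array of the third group. The 166 therefore overstate how stable the direction is. In MI against Sham, miR-210-3p turned to 0.041 with the brightest probe, and miR-34a-5p to -0.61 with the slide as a fixed block and -0.061 as a random block. In YQFM against MI, miR-210-3p turned to 0.145 in the authors' processed values, 0.083 without scaling, 0.15 with the slide as a random block, and 0.46 both as a fixed block and for the 1 array against 1 of the shared slide. miR-34a-5p turned there to 0.037, 0.14 and 0.60 with the authors' values, the random block, and the fixed block or the shared slide. In YQFM against Sham, miR-34a-5p turned to -0.013 with the slide as a fixed block and within the shared slide. The cause was not tested. miR-210-3p in YQFM against MI also turned without MI replicate 1 (0.061), YQFM replicate 2 (0.0069) or YQFM replicate 4 (0.024), and miR-34a-5p in YQFM against Sham without YQFM replicate 1 (-0.013). Leaving out each array in turn gave -0.32 to -0.11, -0.15 to 0.061 and -0.36 to -0.15 for miR-210-3p in MI against Sham, YQFM against MI and YQFM against Sham, and 0.16 to 0.45, -0.32 to -0.0068 and -0.013 to 0.30 for miR-34a-5p.

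The difference of miR-34a-5p minus miR-210-3p and its alternatives were chosen after seeing the data. In MI against Sham it was 0.52, and it moved to 0.35 and 0.33 with the shorter miR-34a-5p probe and the shorter or longer miR-210-3p probe, 0.28 with normexp (offset 50) and 0.35 with quantile normalization. In YQFM against Sham it was 0.41, and 0.19 with normexp. Leaving out each array gave 0.43 to 0.62 and 0.35 to 0.46.

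The replicate number as a block left the log2 ratios at their values, -0.22 for miR-210-3p in MI against Sham (limma adjusted p = 0.153), and changed no call of a member. Same-numbered arrays did not deviate together (r from -0.636 to 0.323), so the numbers were not taken to pair rats. The count of called miRNAs over all those tested was 19 in MI against Sham and 0 to 62 under the alternatives, 0 and 0 to 28 in YQFM against MI, and 0 and 0 in YQFM against Sham. Most miRNAs have no variance without the detection filter, which makes that fit unreliable. miR-34b-5p and miR-34c-5p were at the floor on all arrays, and no log2 ratio was computed for them. The software's detection call and a single spot above background also gave 0 of 12 arrays for both. What these arrays can show is limited by signal over background.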
